A study of Homo sapiens with 148 samples.

Results

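Clustered protocadherins are cell adhesion proteins of the cadherin superfamily, encoded by tandem arrays of genes that each start from their own promoter. In the alpha and gamma clusters the exon behind each promoter is spliced to constant exons that all members of the cluster share, whereas the beta genes carry no shared constant exons. Neurons choose a small set of these promoters per cell, through DNA methylation, CTCF and cohesin, and the chosen proteins bind like to like between cells. The C-type members at the ends of the alpha and gamma clusters are chosen less at random than the others.

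The genes were found by name in a table of transcript levels across pancreatic differentiation, taking names that start with PCDHA, PCDHB or PCDHG followed by a digit, or by A, B or C and a digit, and leaving out names with P for pseudogene. This gave 54 of the 49085 names in the table. The alpha cluster had 16 members (14 variable and 2 C-type), the beta cluster 16 and the gamma cluster 22 (12 of type A, 7 of type B and 3 C-type). PCDHA14 is kept by its name, although GENCODE version 44 annotates it as a transcribed pseudogene. All members lie on the + strand of chromosome 5 (hg38), the alpha cluster at chr5:140786136-141012347, the beta cluster at chr5:141051374-141249365 and the gamma cluster at chr5:141330514-141512977.

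RNA-seq was done on wild-type H9 cells, a human embryonic stem cell (hESC) line, before differentiation and after stepwise treatment of spheroids with growth factors and small molecules. The groups were undifferentiated hESCs, definitive endoderm (DE, day 4, after Activin A and CHIR99021), primitive gut tube (PGT, day 7, after KGF), pancreatic progenitors (PP, day 14, after retinoic acid, Sant1, LDN193189 and PdBU, with KGF), SC-β organoids (day 35, after XXI, betacellulin, Alk5 inhibitor II and T3 among others), and a stage named PH, whose definition and day the sources used here do not give. Each stage had 2 RNA-seq samples, 12 of the 148 samples of the series, and the authors deposited the mean TPM (a level scaled to transcript length and to the total of the sample) of each stage. Every value below is therefore the authors' mean, with no replicate values, no error and no test, and the read counts behind it are not part of the table. The study states its depth only as a lower bound that all replicates share. All stages come from 1 cell line. The stage markers were as labelled in most stages, with POU5F1 at 1449 TPM in hESCs, SOX17 at 96.1 TPM in DE, FOXA1 at 86.0 TPM in PGT, PDX1 at 3.17 TPM in PP, and INS at 298.1 and GCG at 2793 TPM in SC-β organoids. In PH, the endodermal and pancreatic markers FOXA2 (1.17 TPM) and PDX1 (0.0173 TPM) were near or below 1 TPM, and FOXA1 was at 1.96 TPM. The hormone genes went another way, with INS at 6.86 TPM in PH and 6.93 TPM in PP, and GCG at 27.2 and 16.5 TPM.

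The RefSeq promoter table (GRCh38.p14, 250 bases before to 50 after each start site) held a window for 47 of the 54 members. Missing were PCDHA3, PCDHA13, PCDHA14, PCDHB6, PCDHB11, PCDHGA12 and PCDHGC5. Clustered protocadherin promoters are known for a conserved element around the letters CGCT. A member was counted if any of its windows held the letters on the forward strand, whereas the shares of all windows count single windows. A member with several windows thus had more chances to match. CGCT was found in 46 of the 47 members and in 54.3% of all 35116 windows in the table. With a G in front, the letters GNCGCT, which contain CGCT, were found in 44 of the 47 members and in 28.4% of all windows. A match of these letters does not show that the conserved element is present. PCDHA9 had no CGCT, and PCDHAC2 and PCDHGB7 had CGCT without that G. The stretches below run 5′ to 3′ on the + strand, with CGCT in capitals, for members with high or stage-dependent levels.

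PCDHA4 (chr5:140806981-140807006): gagccacatgatgtCGCTctttacca
PCDHA6 (chr5:140827899-140827924): gagccgcatgatgtCGCTgtctacca
PCDHA10 (chr5:140855843-140855868): aagccaccggatgtCGCTgtcgtcca
PCDHAC1 (chr5:140926222-140926247): ctagaaggtgtggtCGCTcacgttca
PCDHB2 (chr5:141094546-141094571): gagacgcggggtggCGCTgcagcctt
PCDHB5 (chr5:141135181-141135206): aggacgcctggtggCGCTgcaggcta
PCDHB16 (chr5:141182312-141182337): agaacgcgtggtggCGCTgcaggtta
PCDHGA8 (chr5:141392570-141392595): aggactgtaagcgcCGCTgttcacct
PCDHGA10 (chr5:141412933-141412958): aggactctgagcgcCGCTgttcacct
PCDHGB6 (chr5:141407926-141407951): gagcctctgggcgcCGCTgtcggcca
PCDHGC4 (chr5:141484954-141484979): ctgagcccgggagcCGCTgtctgcca

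The letters around the core differed by cluster. The commonest 4 letters before CGCT in each cluster gave ATGTCGCT in 9 members, all alpha, GTGGCGCT in 13 members, all beta, and GCGCCGCT in 10 members, all gamma. Of all windows in the table, 0.154%, 0.638% and 1.49% held these words on the forward strand. PCDHB1, and PCDHGC4 like other gamma members, matched GNCGCT without the word of their cluster. The words were read off the members' own windows, so their counts describe the members and show nothing further. Taking the match of GNCGCT farthest upstream in each member, the median offset of CGCT from the start site was -55 bases in the alpha cluster, -61.5 in the beta cluster and -62 in the gamma cluster. The TATA box, in the letters TATAAA, stood on the forward strand of any window in 5 of the 47 members, and in 7.33% of all single windows. A match is a description of letters and not of a bound site.

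The 250 bases before a start site are given whole for PCDHGB6, the member with the highest level, and for PCDHB16 (GRCh38.p14, + strand). PCDHB16 is the beta member with the largest log2(TPM + 1) ratio to hESCs in PH. Capitals mark the CGCT of each GNCGCT match. Another annotated start site of PCDHGB6, with the 250 bases before it at chr5:141407953-141408202, had no GNCGCT match in its window.

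PCDHGB6 (chr5:141407771-141408020): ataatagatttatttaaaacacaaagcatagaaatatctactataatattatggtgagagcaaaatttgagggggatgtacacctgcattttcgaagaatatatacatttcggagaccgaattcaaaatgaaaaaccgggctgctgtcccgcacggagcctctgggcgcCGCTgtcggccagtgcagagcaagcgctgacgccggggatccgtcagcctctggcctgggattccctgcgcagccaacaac
PCDHB16 (chr5:141182137-141182386): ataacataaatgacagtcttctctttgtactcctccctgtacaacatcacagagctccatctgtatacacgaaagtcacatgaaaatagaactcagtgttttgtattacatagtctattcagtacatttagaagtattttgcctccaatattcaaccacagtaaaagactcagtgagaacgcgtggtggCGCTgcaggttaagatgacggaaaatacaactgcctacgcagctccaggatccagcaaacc

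In hESCs the clustered protocadherins were low, and their summed level was higher in every later stage. Summed over the 54 members, it was 75.97 TPM in hESCs, 182.8 TPM in DE, 190.3 TPM in PGT and 139.5 TPM in PP, with 266.8 TPM in PH and 214.3 TPM in SC-β organoids. No member was listed at 0 in any stage. At 1 TPM or more stood 22 of the 54 members in hESCs, 44 in DE, 40 in PGT and 36 in PP, with 42 in PH and 42 in SC-β organoids, while the share of all names at that level was 34.2% in hESCs and 39.2% to 50.1% in the later stages. Because these are bulk samples, more cells that transcribe a member and more RNA of it per cell cannot be told apart.

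The clusters did not share one course over the stages. The alpha cluster summed to 33.0 TPM in hESCs, 50.9 in DE, 70.9 in PGT and 51.5 in PP, with 75.4 in PH and 68.4 in SC-β organoids. The beta cluster summed to 15.9 TPM in hESCs, 55.8 in DE, 67.6 in PGT and 45.4 in PP, with 87.1 in PH and 47.5 in SC-β organoids. The gamma cluster summed to 27.1 TPM in hESCs, 76.1 in DE, 51.8 in PGT and 42.6 in PP, with 104.2 in PH and 98.5 in SC-β organoids. In hESCs the alpha sum was the highest and the beta sum the lowest, and in DE, PH and SC-β organoids the gamma sum was the highest. As deposited, the lowest later stage was DE for the alpha cluster and PP for the other clusters.

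**Figure D1:**
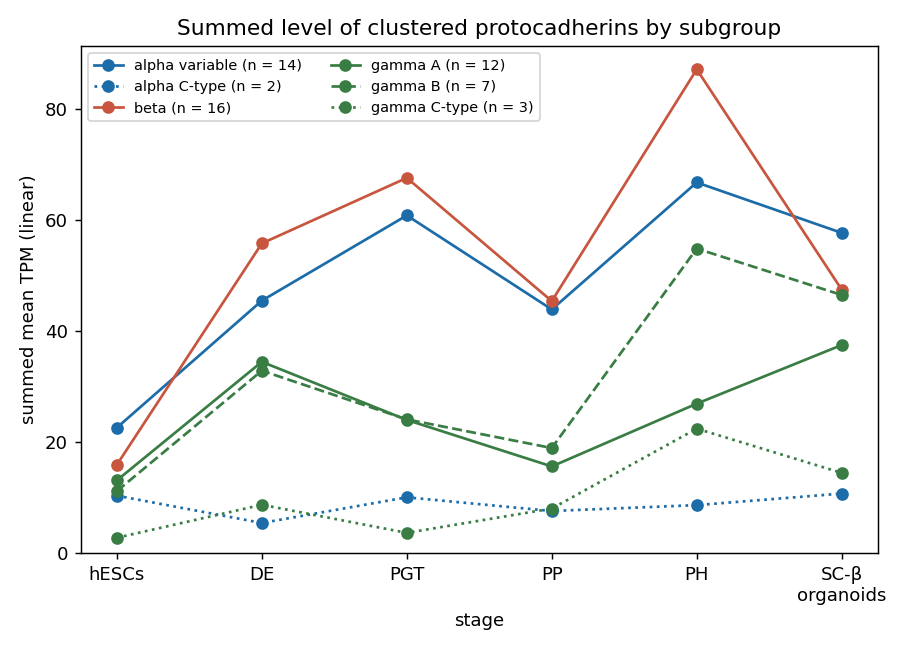
Summed mean TPM (linear vertical axis) of each subgroup in the 6 stages (horizontal axis), one line per subgroup, with the number of members in the legend; lines join stages only to guide the eye, and the day of PH is not given. The beta line peaks at 87.1 TPM in PH, the gamma B line at 54.9 TPM in PH, and the alpha C-type line stays between 5.44 and 10.7 TPM.

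TPM values of a stage share one total, so they also move with the most abundant RNAs. The 100 most abundant names held 47.6% (DE) to 62.9% (PH) of a stage's total. Rescaling each stage by its median ratio over the 13938 names at 1 TPM or more in every stage moved the stages, relative to hESCs, by 0.48 (DE), 0.34 (PGT), 0.25 (PP), 0.03 (PH) and 0.52 (SC-β organoids) on the log2 scale. After this rescaling the beta sum was 2.51 times its hESC level in DE, 3.36 times in PGT, 2.40 times in PP, 5.38 times in PH and 2.08 times in SC-β organoids, against 3.50, 4.24, 2.85, 5.47 and 2.98 times as deposited. For the gamma cluster the rescaled ratios were 2.01, 1.51, 1.32, 3.78 and 2.53, against 2.81, 1.91, 1.57, 3.85 and 3.64 as deposited. For the alpha cluster they were 1.11, 1.70, 1.31, 2.25 and 1.45, against 1.54, 2.15, 1.56, 2.29 and 2.08. All 3 cluster sums thus stayed above hESCs in every stage under this rescaling, with the largest ratio in PH. The lowest later stage of the beta cluster became SC-β organoids (40.0 TPM) in place of PP (46.2 TPM).

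**Figure D2:**
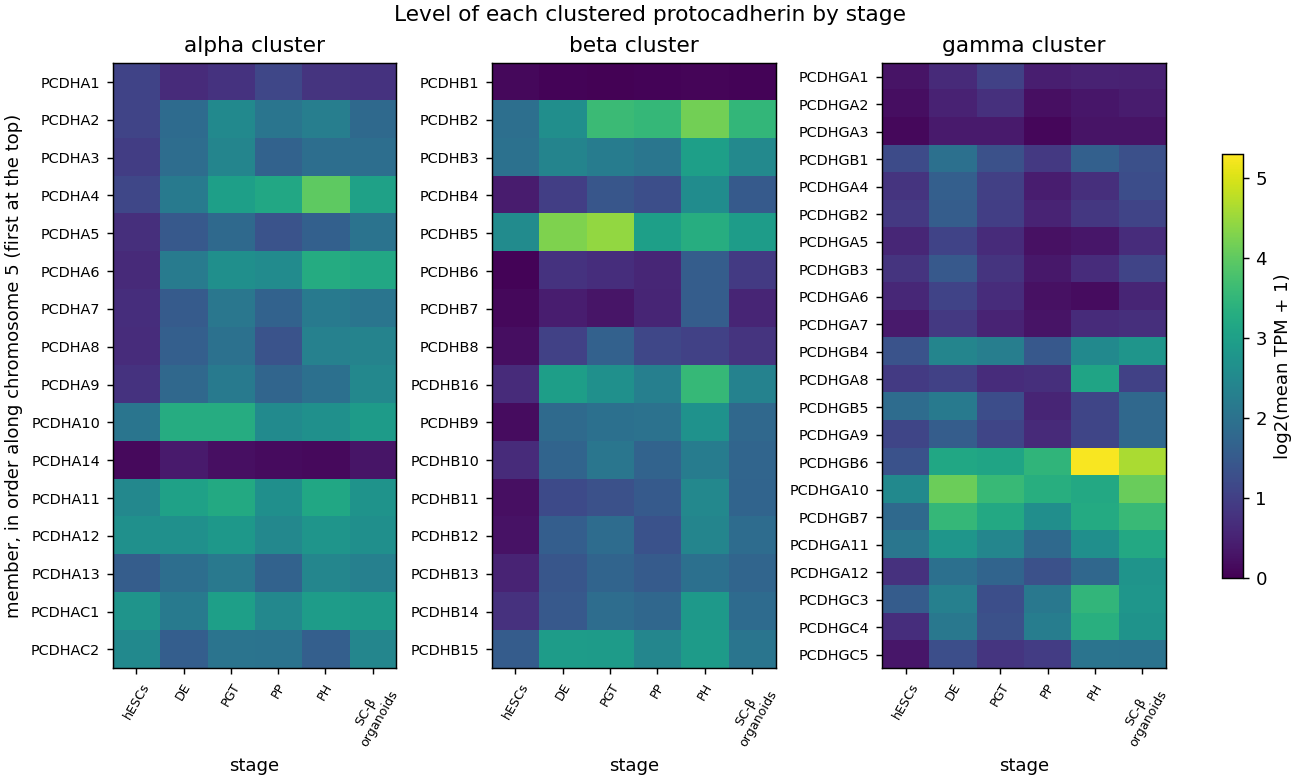
Level of each of the 54 members (rows, in chromosome order within each cluster) in each of the 6 stages (columns), colored by log2(mean TPM + 1). The first column (hESCs) is the darkest for most beta rows, and the brightest cell is PCDHGB6 in PH.

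The variable alpha members, apart from the annotated pseudogene PCDHA14, encode the alpha proteins other than the C-types. Of the 14 variable members, 12 were lowest in hESCs, the exceptions being PCDHA1 (lowest in DE) and PCDHA12 (lowest in PP). PCDHA14 is among the 12, at 0.102 TPM in hESCs and 0.104 TPM in PH. Of the names that reached 1 TPM somewhere, 41.2% were lowest in hESCs, and 33.8% after rescaling, when 9 of the 16 alpha members were lowest there. PCDHA4 was at 1.20 TPM in hESCs, 3.45 in DE, 7.0 in PGT and 8.01 in PP, with 14.8 in PH and 7.19 in SC-β organoids. PCDHA6 was at 0.557 TPM in hESCs, 3.64 in DE, 5.27 in PGT and 4.91 in PP, with 8.61 in PH and 8.10 in SC-β organoids. Both were lowest in hESCs and highest in PH. PCDHA10 had another course, with 3.19 TPM in hESCs, 8.73 in DE, 8.71 in PGT and 4.79 in PP, with 5.32 in PH and 6.49 in SC-β organoids. PCDHA11 was at 4.57 TPM in hESCs and between 5.22 (PP) and 8.30 TPM (PGT) later. PCDHA10 and PCDHA11 were the leading alpha members in DE and PGT, and PCDHA4 led in PP and PH, where it held 19.6% of the alpha sum. PCDHA12 stayed between 4.57 (PP) and 6.04 TPM (PGT) in all stages. PCDHA1 was between 0.572 (DE) and 1.17 TPM (PP), and PCDHA14 did not pass 0.309 TPM in any stage. The other 7 variable members, PCDHA2, PCDHA3, PCDHA5, PCDHA7, PCDHA8, PCDHA9 and PCDHA13, ranged from 0.593 to 1.97 TPM in hESCs and from 2.11 to 4.38 TPM in PH.

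The alpha C-type members were the only subgroup whose sum did not exceed hESCs by more than 1.04 times in any stage. PCDHAC1 was the highest of all members in hESCs, at 5.67 TPM, and was at 3.45 in DE, 6.94 in PGT and 4.57 in PP, with 6.63 in PH and 6.36 in SC-β organoids. PCDHAC2, known from serotonergic neurons, where it is needed for their axons to space out, was at 4.69 TPM in hESCs, 1.99 in DE, 3.12 in PGT and 3.03 in PP, with 2.03 in PH and 4.38 in SC-β organoids. PCDHAC2 was thus highest in hESCs and PCDHAC1 highest in PGT. Their sum relative to hESCs was 0.525 in DE and 1.04 in SC-β organoids, and after rescaling 0.376 and 0.722, so that the direction in SC-β organoids flips with the scaling. The direction in PH also flips, from 0.836 as deposited to 1.05 once the 100 most abundant names are left out of the totals.

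The alpha and gamma levels carry a limit that the beta levels do not. In GENCODE version 44, 15 of the 16 alpha members and all 22 gamma members share 3 exons with their neighbors, which make up 48.7% to 53.7% of the length of an alpha transcript and 44.8% to 45.9% of a gamma transcript. Reads from these exons cannot be assigned to 1 member, so a member's TPM depends on how StringTie divided them. The 16 beta members have 1 exon each and share none. Similar sequence among the beta genes can still leave reads that match several of them.

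The beta cluster had the largest ratio to hESCs in all later stages but SC-β organoids, where the gamma cluster had it. Of its 16 members, 15 were lowest in hESCs and 12 were highest in PH, and after rescaling these numbers were 13 and 13, beside 41.2% (33.8% after rescaling) of names at 1 TPM somewhere that were lowest in hESCs. Over all clusters 21 of 54 members (38.9%) were highest in PH, while PH was the highest stage of 13.5% of the 28202 names that reached 1 TPM somewhere. PCDHB16 was at 0.568 TPM in hESCs, 6.86 in DE, 5.31 in PGT and 3.87 in PP, with 10.8 in PH and 4.11 in SC-β organoids. PCDHB2 was at 2.80 TPM in hESCs, 5.10 in DE, 11.3 in PGT and 10.6 in PP, with 17.1 in PH and 10.4 in SC-β organoids. Both were lowest in hESCs and highest in PH. PCDHB5 instead was at 4.86 TPM in hESCs, 18.3 in DE, 20.7 in PGT and 6.90 in PP, with 8.81 in PH and 6.62 in SC-β organoids. It held 30.5% of the beta sum in hESCs, 32.8% in DE and 30.7% in PGT, and PCDHB2 was the leading beta member in the other stages.

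Further beta members were at very low levels in hESCs. PCDHB9 was at 0.126 TPM in hESCs, 2.58 in DE, 2.89 in PGT and 2.99 in PP, with 5.46 in PH and 2.47 in SC-β organoids. PCDHB4 was at 0.327 TPM in hESCs, 0.970 in DE, 1.68 in PGT and 1.40 in PP, with 4.96 in PH and 1.81 in SC-β organoids. PCDHB6 and PCDHB7 reached 1 TPM only in PH, at 1.97 TPM each. PCDHB8 was highest in PGT, at 2.15 TPM. PCDHB15 was at 1.91 TPM in hESCs, 6.59 in DE, 6.47 in PGT and 4.40 in PP, with 6.46 in PH and 3.18 in SC-β organoids. PCDHB3, PCDHB10, PCDHB11, PCDHB12, PCDHB13 and PCDHB14 were each highest in PH, at 2.89 to 6.92 TPM, against 0.166 to 2.95 TPM in hESCs. PCDHB1, the outermost gene of the cluster, was at 0.0782 TPM in hESCs and lower in every later stage. The beta pseudogenes PCDHB17P, PCDHB18P and PCDHB19P, which the name rule leaves out, were likewise lowest in hESCs (0.0145 to 0.126 TPM) and highest in PH (1.10 to 2.35 TPM).

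In the gamma cluster the members followed different courses. PCDHGB6 was at 1.53 TPM in hESCs, 7.92 in DE, 7.59 in PGT and 10.0 in PP, with 37.0 in PH and 23.6 in SC-β organoids. It was the highest of all 54 members in PH and SC-β organoids, and in PH it held 35.5% of the gamma sum. PCDHGA10 was at 4.68 TPM in hESCs, 16.3 in DE, 10.9 in PGT and 8.94 in PP, with 8.12 in PH and 16.1 in SC-β organoids. PCDHGB7 was at 2.53 TPM in hESCs, 10.54 in DE, 8.15 in PGT and 5.15 in PP, with 8.44 in PH and 11.01 in SC-β organoids. These 2 members were thus near their maximum in both DE and SC-β organoids. PCDHGA8 was at 7.50 TPM in PH and between 0.600 (PGT) and 1.03 TPM (SC-β organoids) elsewhere. PCDHGB5 was at 2.67 TPM in hESCs, 3.51 in DE, 1.37 in PGT and 0.456 in PP, with 1.17 in PH and 2.48 in SC-β organoids, the lowest value falling in PP.

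Without PCDHGB6 the gamma B sum in PH was 1.85 times its hESC level, against 4.91 times with it. Of the 22 gamma members, 9 were highest in DE, 5 in PH and 5 in SC-β organoids. The lowest stage was PP for 10 members and hESCs for 9. After rescaling, 8 were highest in DE, 7 in PH and 3 in SC-β organoids, and 12 were lowest in PP and 7 in hESCs. PCDHGA12 was at 0.691 TPM in hESCs, 2.91 in DE, 2.28 in PGT and 1.48 in PP, with 2.43 in PH and 5.71 in SC-β organoids, where it was highest. PCDHGA11 was likewise highest in SC-β organoids, at 8.22 TPM, with 3.23 in hESCs and 2.49 in PP. PCDHGB4 was at 1.57 TPM in hESCs, 4.30 in DE, 3.78 in PGT and 1.75 in PP, with 4.71 in PH and 5.75 in SC-β organoids. The remaining 11 members of types A and B, all placed before PCDHGB6 (PCDHGA1 to PCDHGA7, PCDHGA9 and PCDHGB1 to PCDHGB3), did not pass 2.88 TPM in any stage. The pseudogenes PCDHGB8P and PCDHGB9P were also highest in SC-β organoids, at 9.47 and 5.46 TPM.

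The gamma C-type members had the largest ratio to hESCs of all subgroups in PH and SC-β organoids, and unlike the alpha C-types they were higher in PH than in any other stage. PCDHGC3 was at 1.92 TPM in hESCs, 3.94 in DE, 1.41 in PGT and 3.38 in PP, with 10.2 in PH and 5.84 in SC-β organoids. PCDHGC4, known from mice as the member that interneurons need to survive, was at 0.606 TPM in hESCs, 3.34 in DE, 1.49 in PGT and 3.75 in PP, with 9.11 in PH and 5.56 in SC-β organoids. PCDHGC5 was at 0.256 TPM in hESCs, 1.43 in DE, 0.763 in PGT and 0.909 in PP, with 3.13 in PH and 3.05 in SC-β organoids. Their sum was 8.08 times the hESC level in PH and 5.20 times in SC-β organoids, and 7.94 and 3.63 times after rescaling.

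Members were compared with hESCs on log2((TPM + 1)/(hESC TPM + 1)), counting a change from 2-fold. This scale understates the change of members at low levels. In DE, 16 of 54 members (29.6%) were at least 2-fold higher, where 12.9% of all names and 28.2% of the names at 1 TPM or more in either stage were. No member was 2-fold lower in DE, against 2.55% of all names and 5.55% of names at 1 TPM. In PGT, 24 members (44.4%) were higher and none lower, against 10.1% and 4.34% of all names, and 23.4% of names at 1 TPM were higher and 10.0% lower. In PP, 11 members (20.4%) were higher, against 7.98% of all names and 18.9% of names at 1 TPM. PCDHGB5, the only member 2-fold lower in PP, had a log2 ratio of -1.34, and 4.06% of all names and 9.63% of names at 1 TPM were 2-fold lower. In PH, 27 members (50.0%) were higher and none lower, against 12.1% and 8.35% of all names, and 27.3% of names at 1 TPM were higher and 18.9% lower. In SC-β organoids, 24 members (44.4%) were higher and none lower, against 22.2% and 3.70% of all names, and 42.4% of names at 1 TPM were higher and 7.08% lower. The members' shares are taken over all 54, of which 45 (DE), 41 (PGT), 39 (PP), 43 (PH) and 43 (SC-β organoids) were at 1 TPM or more in either stage, so they are set against all names, and the shares over names at 1 TPM have another denominator. The counts in DE and PP moved most with the settings, the higher members being 40 in DE and 25 in PP with a pseudocount of 0.1 TPM, 10 in DE after rescaling, and 23 in PP without the 100 most abundant names.

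By cluster the counts came apart. Of the 16 beta members, 6 passed the 2-fold limit upward in DE, 12 in PGT and 7 in PP, with 13 in PH and 9 in SC-β organoids. Of the 16 alpha members, 4 were higher in DE, 9 in PGT and 2 in PP, with 6 in PH and 6 in SC-β organoids. Of the 22 gamma members, 6 were higher in DE, 3 in PGT and 2 in PP, with 8 in PH and 9 in SC-β organoids. In this order the beta shares were 37.5%, 75.0%, 43.75%, 81.25% and 56.25%. The alpha shares were 25.0%, 56.25%, 12.5%, 37.5% and 37.5%, and the gamma shares 27.3%, 13.6%, 9.09%, 36.4% and 40.9%. All names gave 12.9%, 10.1%, 7.98%, 12.1% and 22.2%, and names at 1 TPM 28.2%, 23.4%, 18.9%, 27.3% and 42.4%. Taken over all members, the alpha and gamma shares in DE, PP and SC-β organoids were below those of names at 1 TPM, which have another denominator. At 1 TPM or more in either stage stood 15 alpha members in each of these comparisons, and 18 (DE), 11 (PP) and 16 (SC-β organoids) gamma members. On that denominator the gamma counts, 6 of 18 in DE and 9 of 16 in SC-β organoids, lay above the shares of names at 1 TPM. The gamma count in PP, 2 of 11, and the alpha counts lay below. The beta median log2 ratio was 0.87 in DE, 1.27 in PGT and 0.97 in PP, with 1.55 in PH and 1.08 in SC-β organoids, beside medians over names at 1 TPM in either stage of 0.58, 0.41, 0.31, 0.28 and 0.83. The gamma median was 0.70 in DE, 0.24 in PGT and -0.056 in PP, with 0.34 in PH and 0.38 in SC-β organoids. In PP 12 of the 22 gamma members lay below 0. The alpha median was 0.77 in DE, 1.16 in PGT and 0.55 in PP, with 0.89 in PH and 0.79 in SC-β organoids. These comparisons share the hESC samples, so the stages are not independent of each other.

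**Figure D3:**
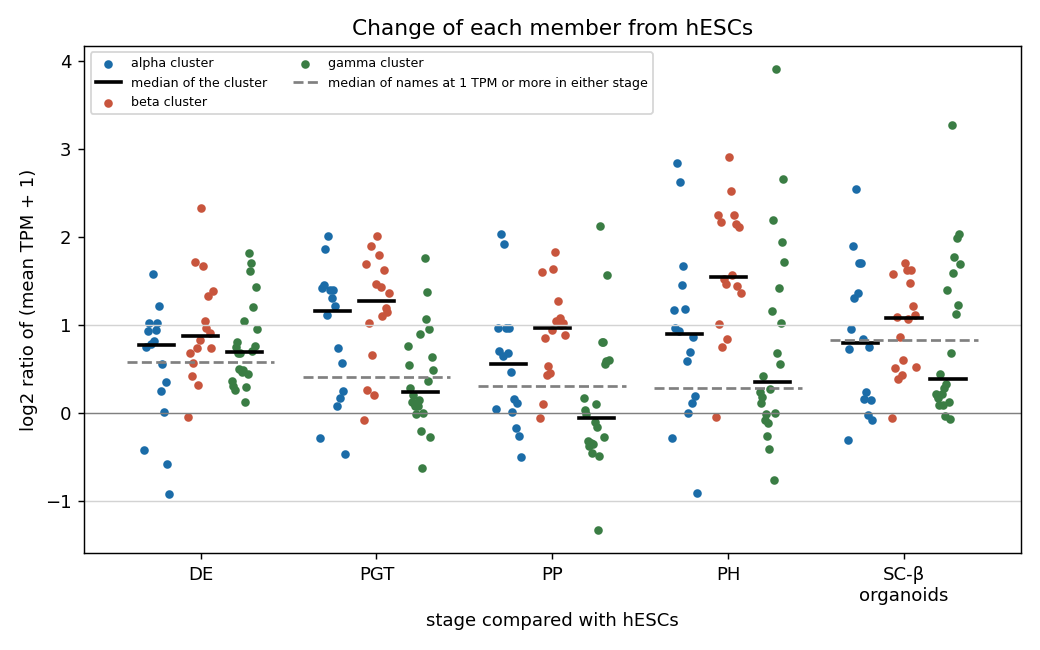
Log2 ratio of (mean TPM + 1) to hESCs (vertical axis) of each member (points, colored by cluster) in the 5 later stages (horizontal axis); black bars are cluster medians, dashed grey lines the median of names at 1 TPM or more in either stage, and thin lines mark 0 and the 2-fold limits. The beta median is above the dashed line in every stage, most in PH (1.55 against 0.28), and the highest point is PCDHGB6 in PH at 3.91.

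The largest ratios to hESCs belonged to a few members. In DE they were those of PCDHB16 (log2 ratio 2.32) and PCDHGB6 (1.82), and the smallest those of PCDHAC2 (-0.93) and PCDHAC1 (-0.58). In PGT, PCDHB16 and PCDHA6 were highest, at 2.01 each. In PP, PCDHGB6 (2.12) and PCDHA4 (2.03) were highest. In PH, PCDHGB6 (3.91) and PCDHB16 (2.91) were highest and PCDHAC2 (-0.91) and PCDHGB5 (-0.76) lowest. In SC-β organoids, PCDHGB6 (3.28) and PCDHA6 (2.55) were highest. PCDHGB6 was among the highest pair in 4 of these 5 comparisons.

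Between successive stages few members differed by 2-fold. From DE to PGT, PCDHB2 was higher (log2 ratio 1.01) and PCDHGC3 lower (-1.04), where 2.30% of all names were higher and 4.92% lower (4.94% and 10.6% of names at 1 TPM). The clusters moved apart in this step, with a median log2 ratio of 0.37 in the alpha, 0.16 in the beta and -0.40 in the gamma cluster, beside -0.19 over names at 1 TPM. Of the 22 gamma members 19 lay below 0, and 18 after rescaling, beside 64.5% and 55.4% of names at 1 TPM. From PGT to PP no member was 2-fold higher and only PCDHB5 was 2-fold lower (-1.46), against 2.74% and 3.25% of all names (6.30% and 7.46% of names at 1 TPM), while with a pseudocount of 0.1 TPM 2 were higher and 10 lower. In this step 43 of the 54 members (79.6%) lay below 0, and 42 after rescaling, beside 58.9% and 52.7% of names at 1 TPM in either stage. The 3 gamma C-type members lay above it, PCDHGC4 with the largest log2 ratio (0.93). From PP to SC-β organoids 8 members were 2-fold higher and none lower, against 10.6% and 0.939% of all names (20.7% and 1.84% of names at 1 TPM), and 7 of the 8 were gamma members. The higher members were 4 after rescaling and 15 with a pseudocount of 0.1 TPM. All 22 gamma members (21 after rescaling) were above their PP level in SC-β organoids, as were 78.2% (64.5% after rescaling) of names at 1 TPM, and their median log2 ratio was 0.69, beside 0.45 over names at 1 TPM. The largest ratios were those of PCDHGA12 (1.43) and PCDHGA11 (1.40). The beta median in this step was 0.049 and flipped to -0.10 after rescaling.

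PH differed from both PP and SC-β organoids in the beta cluster. Against PP, 11 members were at least 2-fold higher in PH and none lower, where 5.14% of all names were higher and 5.73% lower (11.5% and 12.8% of names at 1 TPM). They were 5 beta and 6 gamma members, among them all 3 gamma C-types, and PCDHGA8 (log2 ratio 2.36) and PCDHGB6 (1.79) had the largest ratios. The count of higher members was 17 after rescaling, 19 with a pseudocount of 0.1 TPM and 20 without the 100 most abundant names. Against PH, 5 members were 2-fold lower in SC-β organoids and none higher, where 2.41% of all names were lower and 14.7% higher (4.60% and 28.1% of names at 1 TPM). They were 4 beta members, PCDHB16 (-1.21) with the largest difference, and PCDHGA8 (-2.07). The count of lower members was 13, 8 and 15 under the same settings in that order, and with the pseudocount of 0.1 TPM 6 members were 2-fold higher. All 16 beta members were lower in SC-β organoids than in PH, with and without rescaling, beside 21.9% and 40.4% of names at 1 TPM as deposited and rescaled, and their median log2 ratio was -0.66, beside 0.59 over names at 1 TPM, while the gamma median was 0.24 and flipped to -0.060 after rescaling.

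Markers of other cell types were higher in the same stages. The 14 markers of neural progenitors and neurons summed to 1721 TPM in PH and to 144.3 (DE) to 372.4 TPM (SC-β organoids) in the other stages. All 14 were at least 2-fold higher in PH than in PP, including the neuronal genes MAP2 (178.4 against 18.8 TPM) and STMN2 (301.0 against 4.48 TPM) and the progenitor gene HES5 (109.8 against 0.0882 TPM). In hESCs SOX1 was at 0, in DE HES5 was at 0, and in PGT SOX1, HES5 and STMN2 were at 0. The 11 mesenchyme markers summed to 2409 TPM in PH and 3574 TPM in SC-β organoids, against 128.4 (DE) to 541.9 TPM (PP) elsewhere. Of these, 9 were at least 2-fold higher in PH than in PP and 10 in SC-β organoids than in PP, with COL3A1, a fibrillar collagen, at 14.9 TPM in PP, 348.6 TPM in PH and 770.7 TPM in SC-β organoids. LUM was at 0 in hESCs and DCN at 0 in DE. The part of these cells in the protocadherin levels was not tested. In DE and PGT the neural list summed to 144.3 and 157.9 TPM against 340.0 TPM in hESCs, and the mesenchyme list to 128.4 and 157.0 TPM against 371.1 TPM. Much of the hESC sums lay in NES (121.4 TPM) and TUBB3 (116.8 TPM), and in VIM (226.1 TPM) and COL1A2 (70.0 TPM). Against hESCs single markers went both ways, with 2 neural markers at least 2-fold higher and 5 lower in each of DE and PGT. Of the mesenchyme markers 0 were higher and 3 lower in DE, and 2 and 3 in PGT. PAX6 was at 4.40 and ELAVL4 at 2.54 TPM in DE, against 0.160 and 0.0519 TPM in hESCs. In PGT MAP2 was at 5.97 TPM and PDGFRA at 62.0 TPM, against 0.677 and 2.34 TPM, and LUM at 3.71 TPM.

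The level was spread over many members in every stage. An effective number of members, the exponential of the Shannon entropy of their shares of the summed TPM, was 32.8 in hESCs, 35.7 in DE, 34.96 in PGT and 34.8 in PP, with 33.2 in PH and 35.4 in SC-β organoids, out of 54. Within the beta cluster it was 7.64 in hESCs and between 9.21 (DE) and 12.3 (PH) later, out of 16. In the gamma cluster it went the other way, from 15.2 in hESCs and 14.1 in DE to 10.4 in PP, 9.60 in PH and 11.7 in SC-β organoids, out of 22. The top 3 gamma members held 39.1% of the cluster's sum in hESCs and 54.1% in PH. These numbers describe the pooled cells and not the choice of promoters in a single cell.

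Levels also differed with the position in a cluster. Among the gamma A and gamma B members those later in the cluster tended to have higher levels, and Spearman's rho between order along the chromosome and TPM was 0.55 (PGT) to 0.87 (SC-β organoids) over the 12 gamma A members and 0.64 (PP and PH) to 0.82 (DE) over the 7 gamma B members. The C-types, which come last, were left out of these values and did not continue the order in hESCs or PGT, PCDHGC5 being at 0.256 TPM in hESCs and all 3 between 0.763 and 1.49 TPM in PGT, where PCDHGA10 was at 10.9 TPM. Among the 13 variable alpha members other than PCDHA14 rho was 0.33 (PP) to 0.54 (DE). Among the 16 beta members it was between -0.0029 (PH) and 0.18 (DE). Members of a cluster share libraries and, in the alpha and gamma clusters, exons, so these are descriptions. PCDHGA3 was the lowest gamma A member on average, at 0.0730 (PP) to 0.313 TPM (PGT), and PCDHGB3 the lowest gamma B member, at 0.261 (PP) to 1.78 TPM (DE).

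**Figure D4:**
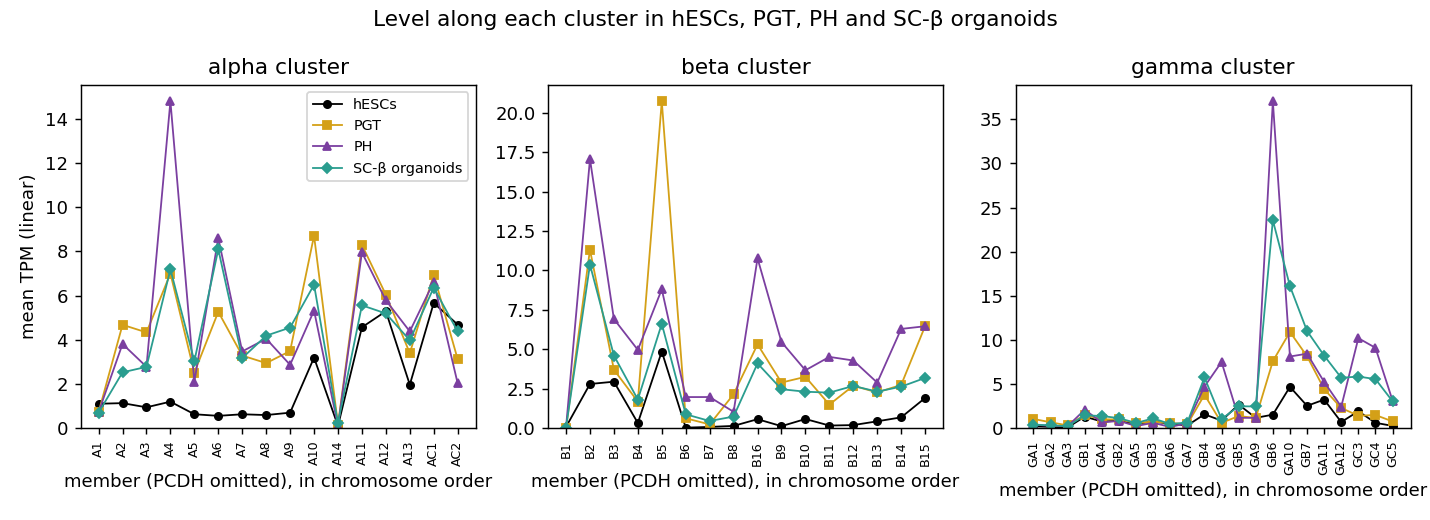
Mean TPM (linear vertical axis, scaled per cluster) of each member in chromosome order (horizontal axis) in hESCs, PGT, PH and SC-β organoids, one line per stage. PCDHA4 (14.8 TPM), PCDHB2 (17.1 TPM) and PCDHGB6 (37.0 TPM) stand out in PH, and PCDHB5 (20.7 TPM) in PGT.

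Most genes beside the clusters stayed within 2-fold of hESCs. Of 14 such genes, 1 was at least 2-fold higher in DE (PCDH1) and 1 in SC-β organoids (SLC25A2), and 1 was lower in PP (PCDH1) and 2 in PH (DIAPH1 and PCDH1). TAF7, a TFIID subunit encoded between the beta and gamma clusters, stayed between 69.1 and 89.8 TPM, and HDAC3, a histone deacetylase, between 40.4 and 50.7 TPM. DIAPH1, a formin encoded next to the gamma cluster, was at 26.4 TPM in hESCs and lowest in PH, at 9.43 TPM. SLC25A2, a mitochondrial ornithine carrier, had 0.0491 TPM in hESCs and 1.45 TPM in SC-β organoids. PCDH1, a protocadherin outside the clusters, was at 13.3 TPM in hESCs, 30.3 in DE and 2.48 to 6.43 TPM later.

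Regulators known to act on these clusters were followed as lists. Of 11 genes of CTCF and cohesin, none was 2-fold lower than in hESCs in any stage, and 2 were higher in DE, 2 in PGT, 0 in PP, 2 in PH and 4 in SC-β organoids. Among names at 1 TPM, 28.2%, 23.4%, 18.9%, 27.3% and 42.4% were higher in these stages, and 5.55%, 10.0%, 9.63%, 18.9% and 7.08% lower. These shares also stand beside the counts of the other lists against hESCs. CTCF, which binds the promoters and enhancers of the clusters, was between 35.7 (PH) and 52.8 TPM (DE), and RAD21, a cohesin subunit, between 76.3 (PH) and 139.0 TPM (DE). The cohesin loading factors NIPBL and MAU2 and the regulators PDS5B and STAG1 were at least 2-fold higher in SC-β organoids than in hESCs, NIPBL at 57.9 against 20.8 TPM and MAU2 at 37.4 against 10.9 TPM. These are values as deposited, with log2 ratios of 1.43 (NIPBL), 1.69 (MAU2), 1.91 (PDS5B) and 1.51 (STAG1). Median-ratio rescaling lowers SC-β organoids by 0.52 on the log2 scale relative to hESCs. WAPL, the cohesin release factor, which stands in the table under its older symbol WAPAL, had 34.9 TPM in hESCs and 20.4 TPM in PH.

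Of the 9 genes of DNA methylation and silencing, the largest differences lay in the enzymes that set and remove methyl groups. Relative to hESCs, 3 were 2-fold higher and 1 lower in DE, 2 and 2 in each of PGT, PP and PH, and 3 and 2 in SC-β organoids. DNMT3B, a de novo methyltransferase that methylates clustered protocadherin promoters in mouse embryos, was at 374.8 TPM in hESCs, 186.3 in DE, 51.7 in PGT and 20.8 in PP, with 59.5 in PH and 24.1 in SC-β organoids. TET2, which oxidizes methylated cytosine, was at 0.891 TPM in hESCs, 12.1 in DE, 17.2 in PGT and 14.7 in PP, with 52.6 in PH and 35.1 in SC-β organoids. TET3 was at 3.66 TPM in hESCs and between 10.2 (PP) and 20.3 TPM (SC-β organoids) later. DNMT3B was thus highest and TET2 and TET3 lowest in hESCs, and their part in the protocadherin levels was not tested. SMCHD1, a protein that helps to silence these clusters, was at 32.6 TPM in hESCs and highest in SC-β organoids, at 89.0 TPM. DNMT1, the maintenance methyltransferase, stayed between 47.7 (PH) and 92.1 TPM (SC-β organoids).

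Among the 11 protocadherins outside the clusters, 6 were at least 2-fold higher than in hESCs in DE, 3 in PGT and 6 in PP, with 5 in PH and 6 in SC-β organoids, and 2, 1, 4, 2 and 0 were lower. PCDH7 was at 2.71 TPM in hESCs, 56.1 in DE, 57.9 in PGT and 21.0 in PP, with 20.5 in PH and 92.0 in SC-β organoids. PCDH10 was at 30.3 TPM in hESCs, 62.2 in DE, 15.0 in PGT and 2.58 in PP, with 4.53 in PH and 42.9 in SC-β organoids. PCDH18 was at 31.3 TPM in hESCs, 5.17 in DE and 63.7 in SC-β organoids. Each of these reached a level above that of any clustered member in any stage, and their courses differed from each other. PCDH8, known as paraxial protocadherin, was highest in PH (16.0 TPM, against 0.154 in hESCs), and PCDH19, the gene of a female-limited epilepsy, in SC-β organoids (23.0 TPM, against 0.446 in hESCs).

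Of 13 cytoplasmic and surface partners, 1 was at least 2-fold higher and 1 lower in DE than in hESCs, 3 and 2 in PGT, 1 and 1 in PP, 2 and 1 in PH, and 3 and 0 in SC-β organoids. FYN, a kinase that binds the alpha proteins, was at 31.9 TPM in hESCs, 51.1 in DE, 74.6 in PGT and 75.3 in PP, with 143.5 in PH and 81.0 in SC-β organoids. PTK2B, a kinase held in check by alpha and gamma proteins, was at 1.501 TPM in hESCs and highest in PGT, at 17.9 TPM. WASF1, a subunit of the WAVE complex that the alpha tail recruits, had 12.9 TPM in hESCs and 83.4 TPM in SC-β organoids. FYN was thus highest in PH, like the sum of the clustered members, and the other named partners in other stages.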

How the data were processed

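The authors aligned paired-end reads to hg38 with HISAT2 (version 2.2.0), quantified genes with StringTie (version 2.1.6) and deposited TPM per gene, as the mean of the 2 replicates of a stage. The labels name a stranded mRNA kit, whereas the methods name ribosomal RNA removal, and the annotation is not given in the sources used here. The table has 50451 entries under 49085 names, of which 231 are repeated and were summed, and each member has 1 entry. No counts, replicate values or depths were used, so no test, interval or detection floor could be had, and precision rests on 2 averaged samples. Ratios were taken as log2(TPM + 1) differences with a 2-fold limit, and the calculation was tested on simulated data (Python 3.11.15, pandas 2.3.3, numpy 2.4.6). Members were named as the C-types, the 3 highest and the lowest of each subgroup, and the 2 largest and smallest ratios of each comparison. PCDHB4, PCDHB6 to PCDHB9, PCDHA12 and members given only in ranges were named after their values were seen. Members, lists and motifs were chosen with earlier results of these data known. Positions are from GENCODE version 44. Alternatives were a pseudocount of 0.1 TPM, median-ratio rescaling, totals without the 100 most abundant names, and low-value filters.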

Additional observations from a re-analysis of the deposited data

How the results depend on the processing

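No paired analysis was possible because each deposited column is the mean of a stage, which also left no replicate to leave out. Over 244 results, 557 of 692 alternative values stayed on their side of the 2-fold limit or near their main value. No median or ratio at or beyond the 2-fold limit changed sign, and counts of members could not be scored as reversed. The causes of the moves were not tested. Taking the highest entry of a repeated name or leaving out PCDHA14 (the latter chosen after seeing the data) moved none. Neither could change a 2-fold count, as each member has 1 entry and PCDHA14 did not pass 0.309 TPM. They gave 38 and 20 of the 557 values that stayed, which therefore say nothing on stability.

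With a pseudocount of 0.1 TPM the members at least 2-fold higher than in hESCs were 40 in DE and 25 in PP, those lower 1 in DE, 4 in PP and 3 in PH. From DE to PGT 4 were lower, from PGT to PP 2 were higher and 10 lower, from PP to SC-β organoids 15 were higher, from PP to PH 19 were higher, and from PH to SC-β organoids 6 were higher and 8 lower. Median log2 ratios to hESCs were then 1.25 (DE), 1.29 (PH) and 1.05 (SC-β organoids) for the alpha cluster, 1.77 (DE) and 1.85 (PP) for the beta cluster and 1.13 (DE) for the gamma cluster, and the gamma median against PP was 1.19 in SC-β organoids.

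Under median-ratio rescaling 10 members were higher and 1 lower in DE than in hESCs, 0 were lower from DE to PGT, 4 were higher from PP to SC-β organoids, 17 higher from PP to PH, and 13 lower from PH to SC-β organoids. The alpha median was 0.95 in PGT and the beta median 0.80 in SC-β organoids against hESCs, the beta median 1.00 in PH and -0.10 in SC-β organoids against PP, and -1.04 in SC-β organoids against PH, where the gamma median was -0.060. The log2 ratio of the alpha sum to hESCs was 0.77 in PGT and 0.53 in SC-β organoids.

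Leaving out the 100 most abundant names and scaling each total up again raises every remaining value. The sum of the members in hESCs was then 163.6 TPM, against 75.97 TPM as deposited, while the 1 TPM limit and pseudocount stayed fixed. On these values 39 members stood at 1 TPM or more in hESCs, 23 were higher in PP and 1 lower in DE than in hESCs, 3 higher from DE to PGT, 2 higher from PGT to PP, 20 higher from PP to PH, and 15 lower from PH to SC-β organoids. Medians against hESCs were 1.39 in PH (alpha), and 1.16 in DE and 1.45 in PP (beta). The beta median was 1.09 in PH and -0.13 in SC-β organoids against PP, and -1.18 in SC-β organoids against PH, where the gamma median was -0.049. The log2 ratio of the alpha sum was 0.92 in SC-β organoids.

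Over members at 1 TPM in either stage, which removes the members that are low in both, the beta median against hESCs was 1.00 in DE and 1.02 in PP, and the gamma median 0.55 in PP, 1.15 in PH and 1.18 in SC-β organoids. With a limit of 0.1 TPM, 50 members were above it in hESCs. Without its highest member, an alternative chosen after seeing the data like the rescaled sums, the log2 ratio of the alpha sum was 0.93 in PH and 0.90 in SC-β organoids.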
